A study of Mus musculus with 12 samples.

Results

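A group of 10 transcription factors that hold mouse embryonic stem cells (ESCs) in the naive state were followed across Etl4 knockout (KO) and wild-type (WT) haploid ESCs. The members were the rows of both count tables with the symbols Nanog, Prdm14, Zfp42, Nr0b1, Esrrb, Tbx3, Tfcp2l1, Klf2, Klf4 and Klf5. All 10 were present in both tables, out of 24421 gene symbols in each, and all 10 passed the filter on low counts in every fit. The rule itself names genes and uses no measured value, but the group was proposed with earlier results of these data known. Raw counts of the 10 ranged from 1116 to 32251 per library.

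The study profiled mRNA of androgenetic haploid ESCs, which carry a single set of chromosomes, from the sperm. Its title concerns a genetic screen that linked loss of Etl4 to stable haploidy. All 12 libraries came from C57BL/6 cells. OdG Etl4 KO line 1, OdG Etl4 KO line 2 and OdG WT had 2 libraries each, and EG1 Etl4 KO and EG1 WT had 3 libraries each. The edit made in Etl4, the culture medium and the number of clones behind each KO line were not stated in the labels. The labels do not tie replicate libraries to independent cultures, and the p-values therefore cover library-to-library spread that may be purely technical.

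Naive pluripotency is the state of the inner cell mass epiblast before implantation, and mouse ESCs keep it in culture when leukaemia inhibitory factor (LIF) is supplied or when MEK/ERK and GSK3 signalling are blocked. LIF acts through Stat3 on Klf4 and Tfcp2l1, relief of the Wnt-pathway repressor Tcf7l1 acts on Esrrb, and the factors bind one another's enhancers, so that together they sustain the core pair Pou5f1 and Sox2. Most of the factors fade when the cells move on to the formative and primed states. Loss of any single one of most of them is tolerated by ESCs in culture, because others cover for it.

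Promoters of 3 members are shown: Nanog as the member with the highest level per exon length, Zfp42 as the member called in both parental lines, and Nr0b1 as an X-linked member with a large difference between parental lines. Each stretch is the RefSeq promoter of the GRCm38.p6 assembly from 250 bases before to 50 bases after the transcription start, read 5′ to 3′ on the gene's own strand. The Nanog stretch is chr6:122707315-122707614 (plus strand, the second of its RefSeq starts), the Zfp42 stretch is chr8:43306960-43307259 (minus strand) and the Nr0b1 stretch is chrX:86191525-86191824 (plus strand). Capitals mark the Oct octamer core TTTGCAT, the Klf box GGGTGTG, here on the opposite strand as CACACCC, and the palindromic AP-2 site GCCNNNGGC.
Nanog promoter: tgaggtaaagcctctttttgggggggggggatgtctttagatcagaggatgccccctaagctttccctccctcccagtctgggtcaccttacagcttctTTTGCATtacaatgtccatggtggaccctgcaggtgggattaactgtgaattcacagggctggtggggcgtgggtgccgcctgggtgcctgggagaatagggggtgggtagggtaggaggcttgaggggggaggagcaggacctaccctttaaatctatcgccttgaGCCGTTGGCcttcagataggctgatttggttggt
Zfp42 promoter: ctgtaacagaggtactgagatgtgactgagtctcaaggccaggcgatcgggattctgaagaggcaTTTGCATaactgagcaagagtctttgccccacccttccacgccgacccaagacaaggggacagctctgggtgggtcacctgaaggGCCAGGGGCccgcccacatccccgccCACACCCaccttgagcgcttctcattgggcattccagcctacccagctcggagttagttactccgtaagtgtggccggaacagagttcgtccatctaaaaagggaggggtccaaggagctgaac
Nr0b1 promoter: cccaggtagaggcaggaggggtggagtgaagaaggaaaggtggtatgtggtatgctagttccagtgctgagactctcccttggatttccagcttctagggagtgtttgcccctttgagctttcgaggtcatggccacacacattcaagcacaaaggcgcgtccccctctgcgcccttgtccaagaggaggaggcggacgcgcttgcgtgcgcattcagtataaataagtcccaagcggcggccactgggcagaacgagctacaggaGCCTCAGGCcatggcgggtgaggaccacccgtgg

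The octamer core lay 151 bases upstream of the second Nanog start and 185 bases upstream of the Zfp42 start. It was read on both strands, as were all motifs, and 4.63% of the 32851 promoters in the table hold it. The Klf box, held by 7.95% of promoters, lay 74 bases upstream of Zfp42. The AP-2 site, held by 16.6% of promoters, was present in all 3 stretches and also in the Klf4 and Tfcp2l1 promoters. The Esrrb promoter at its first start held a Klf box and the Stat site TTCNNNGAA, which 8.3% of promoters hold. No member promoter held the Esrrb motif AAGGTCA, which 4.72% of promoters hold. RefSeq promoters were matched for 7 of the 10 members, and Klf5, Tbx3 and Prdm14 are named only. The motifs were chosen after results were known, and a match is a string of letters, not a bound site.

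Etl4 was lower in every KO library than in every WT library of its table. Its level averaged 99.1 CPM in OdG KO line 1, 112 CPM in OdG KO line 2 and 208 CPM in OdG WT, and 132 CPM in EG1 KO against 263 CPM in EG1 WT. CPM here is the count per unit of effective library size, that is, its total count times an edgeR TMM factor (trimmed mean of log ratios) fitted within each table. The log2 fold change was -0.98 ± 0.034 (SE) in OdG KO and -0.99 ± 0.036 in EG1 KO, which are ratios of 0.506 and 0.502 to WT. Library totals ran from 16110028 to 19706599 counts. The ESC markers were present in all 12 libraries and none of the 8 was under 1 CPM in any group.

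The OdG WT libraries stood apart in a way that their labels do not give. Guf1 had 3 raw counts in each of the OdG WT libraries, and Gnpda2 had 0 and 1, whereas every OdG KO library held at least 736 counts of Guf1 and 289 of Gnpda2. Tfap2c, which encodes an AP-2 transcription factor of the naive and trophoblast programmes, averaged 10.4 ± 0.644 CPM in line 1, 113 ± 3.37 CPM in line 2 and 0.382 ± 0.131 CPM in OdG WT (SD, n = 2 each). In EG1 it averaged 85.5 ± 1.23 CPM in KO and 86.7 ± 2.69 CPM in WT (SD, n = 3 each). Guf1 averaged 36.3 CPM in EG1 KO and 40.1 CPM in EG1 WT, and Gnpda2 14.6 CPM in EG1 KO and 16.4 CPM in EG1 WT, so these transcripts were near absent in OdG WT and present in every other group. These genes were singled out after their values were seen. Every OdG KO value below is set against these WT libraries, which are the only OdG controls, so no OdG comparison can be given without them. The labels do not say that these WT cells are the direct parent stock of the KO lines. A difference between cell stocks and loss of Etl4 cannot be told apart in OdG, and an OdG KO effect below means only the difference between those KO and WT libraries.

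In OdG, all 10 naive factors were higher in Etl4 KO than in WT, while in EG1 Zfp42 alone passed the test. The mean of the OdG KO lines was above OdG WT by 74.7% for Prdm14, 69% for Klf5, 68.4% for Nr0b1, 49.9% for Nanog, 49.5% for Zfp42 and 38.8% for Tbx3. Klf4 was 19.3% higher, Esrrb 16.2%, Klf2 7.33% and Tfcp2l1 6.79%. The 10 calls stand against a background in which 29.4% of the 14413 genes tested were called higher in OdG KO and 30.5% lower. The median log2 fold change of the 10 was 0.53, and that of all genes tested was -0.01. With the 4 KO libraries as 1 group, 8 members were called higher, and the genes called over the whole table numbered 2378 higher and 2231 lower, against 4241 and 4397. Against a required change of 1.2-fold, a test added after the data were seen, 6 of the 10 stayed higher, compared with 12.3% of all genes higher and 17% lower. In bulk libraries, a different share of cells in a state and a different amount of RNA per cell cannot be told apart.

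**Figure D1:**
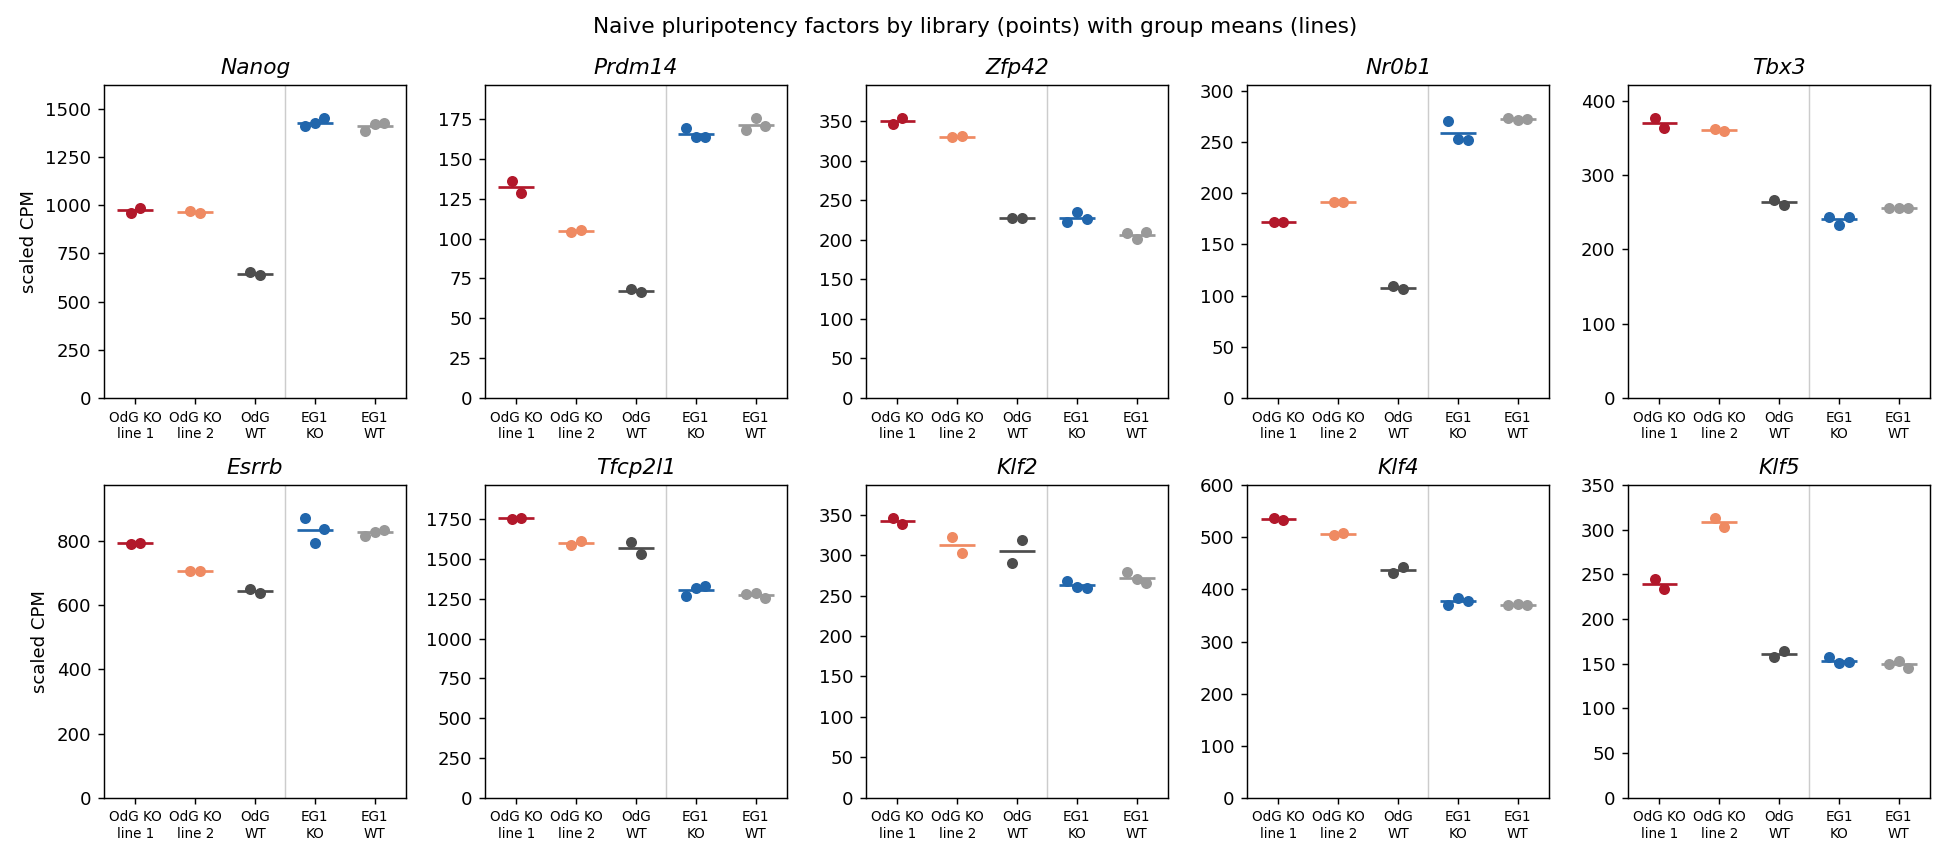
Level of each naive pluripotency factor in every library, in CPM scaled within its own table, with 1 panel per factor and 1 point per library in the 5 groups. The OdG KO points lie above the OdG WT points for 8 of the 10 factors, with overlap for Klf2 and Tfcp2l1, and the EG1 KO and EG1 WT points lie close together.

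Nanog (mm10 chr6:122707489-122714633), the homeodomain factor that lets ESCs self-renew without LIF when it is raised, had 958 and 988 CPM in OdG KO line 1 and 968 and 958 CPM in line 2, against 651 and 640 CPM in OdG WT. All 4 KO libraries were above both WT libraries. The log2 fold change was 0.58 ± 0.025 (SE, adjusted p = 2.2e-12). In EG1 it had 1409, 1427 and 1450 CPM in KO and 1383, 1422 and 1428 CPM in WT. These EG1 groups overlapped, and the log2 fold change was 0.02 ± 0.027 (adjusted p = 0.77).

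Prdm14 (mm10 chr1:13113457-13127163), a PR-domain protein that holds back FGF signalling and the de novo DNA methyltransferases, had 136 and 129 CPM in OdG KO line 1, 104 and 105 CPM in line 2 and 68.6 and 66.3 CPM in OdG WT. Both lines were clear of WT, and line 1 was clear of line 2. The log2 fold change was 0.97 ± 0.044 in line 1 (adjusted p = 9.9e-12) and 0.64 ± 0.045 in line 2 (adjusted p = 1.9e-09). In EG1, KO libraries had 169, 163 and 164 CPM and WT libraries 168, 175 and 171 CPM, which overlapped.

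Zfp42 (mm10 chr8:43295063-43306980), known as Rex1 and used as a reporter of the naive state, had 347 and 353 CPM in OdG KO line 1, 330 and 331 CPM in line 2 and 227 and 228 CPM in OdG WT. The 4 KO libraries lay above both WT libraries, at a log2 fold change of 0.58 ± 0.029 (adjusted p = 2.3e-11). In EG1 the KO libraries had 223, 235 and 226 CPM and the WT libraries 209, 201 and 209 CPM. All 3 KO libraries were above all 3 WT libraries, at a log2 fold change of 0.14 ± 0.036 (adjusted p = 0.01), which is 10.3% higher. This EG1 call was not kept without EG1 WT replicate 2 (adjusted p = 0.091) or without EG1 KO replicate 2 (adjusted p = 0.06).

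Nr0b1 (mm10 chrX:86191764-86195947), called Dax1, an X-linked orphan nuclear receptor without the usual DNA-binding domain, had 172 and 172 CPM in OdG KO line 1, 192 and 191 CPM in line 2 and 109 and 106 CPM in OdG WT. The log2 fold change was 0.67 ± 0.039 in line 1 and 0.83 ± 0.038 in line 2 (adjusted p = 1.8e-10 and 6.4e-12). In EG1 the KO libraries had 271, 253 and 252 CPM and the WT libraries 273, 272 and 272 CPM. Each KO library was below each WT library, but the difference of -0.07 ± 0.035 on the log2 scale did not pass (adjusted p = 0.22). Esrrb (mm10 chr12:86361117-86521628), an orphan nuclear receptor that can stand in for Nanog, had 792 and 796 CPM in line 1, 708 and 706 CPM in line 2 and 652 and 638 CPM in OdG WT, with no overlap between the 3 groups. Its log2 fold change was 0.30 ± 0.028 in line 1 and 0.13 ± 0.028 in line 2 (adjusted p = 9.6e-08 and 5.6e-04). In EG1 it had 872, 793 and 838 CPM in KO and 817, 829 and 836 CPM in WT, which overlapped.

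Tbx3 (mm10 chr5:119670669-119684724), a T-box factor downstream of phosphoinositide 3-kinase signalling, had 376 and 363 CPM in OdG KO line 1, 362 and 360 CPM in line 2 and 267 and 260 CPM in OdG WT. The KO libraries were all above the WT libraries, at a log2 fold change of 0.47 ± 0.03 (adjusted p = 4e-10). In EG1 the KO libraries, at 244, 233 and 244 CPM, were all below the WT libraries, at 256, 255 and 256 CPM, and the log2 fold change of -0.09 ± 0.035 did not pass (adjusted p = 0.12). Tfcp2l1 (mm10 chr1:118627945-118685168), a CP2-family factor driven by LIF and Stat3, had 1754 and 1756 CPM in line 1, 1588 and 1612 CPM in line 2 and 1609 and 1529 CPM in OdG WT. Line 1 was above WT at 0.16 ± 0.026 (adjusted p = 5.8e-05), while line 2 overlapped WT at 0.03 ± 0.026 (adjusted p = 0.37). In EG1 it had 1267, 1317 and 1331 CPM in KO and 1279, 1285 and 1255 CPM in WT, which overlapped.

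The Kruppel-like factors, zinc-finger proteins that bind the same GC-rich box, split by size of change. Klf5 (mm10 chr14:99298691-99315036) had 245 and 234 CPM in OdG KO line 1, 313 and 304 CPM in line 2 and 157 and 164 CPM in OdG WT. Its log2 fold change was 0.57 ± 0.04 in line 1 (adjusted p = 2.1e-09) and 0.94 ± 0.039 in line 2 (adjusted p = 1.8e-12). Klf4 (mm10 chr4:55527143-55532466), the LIF and Stat3 target used in reprogramming, had 537 and 534 CPM in line 1, 505 and 508 CPM in line 2 and 431 and 443 CPM in OdG WT, with all KO libraries above both WT libraries, at 0.25 ± 0.027 on the log2 scale (adjusted p = 2.6e-07). Klf2 (mm10 chr8:72319033-72321656), a factor that MEK/ERK signalling marks for degradation, had 346 and 339 CPM in line 1, 322 and 302 CPM in line 2 and 290 and 319 CPM in OdG WT. Both line 1 libraries were above WT and line 2, at 0.17 ± 0.043 over WT on the log2 scale (adjusted p = 0.0034), whereas line 2 overlapped WT and did not pass (0.04 ± 0.043, adjusted p = 0.49). In EG1, Klf2 had 269, 260 and 259 CPM in KO and 279, 270 and 266 CPM in WT, Klf4 had 371, 383 and 377 CPM in KO and 369, 373 and 369 CPM in WT, and Klf5 had 158, 151 and 152 CPM in KO and 150, 153 and 145 CPM in WT. All 3 overlapped between EG1 KO and EG1 WT.

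The calls of Klf2 and Tfcp2l1 in the mean of the OdG KO lines did not hold under every alternative. The log2 fold change was 0.10 ± 0.038 for Klf2 (adjusted p = 0.027) and 0.09 ± 0.023 for Tfcp2l1 (adjusted p = 0.0017). Pooling the 4 OdG KO libraries into 1 group, which adds the difference between lines to the error, left neither past the threshold (adjusted p = 0.27 for Klf2 and 0.22 for Tfcp2l1), and the other 8 members passed. Both were also lost with upper quartile scaling (0.19 and 0.071) and with total counts (0.18 and 0.072). The Klf2 call was also lost without OdG WT replicate 1 (adjusted p = 0.36), OdG KO line 1 replicate 1 (0.081) or OdG KO line 2 replicate 1 (0.13). In 8 of the 10 members every OdG KO library was above every OdG WT library, where 55.5% of all genes tested showed no overlap in either direction.

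**Figure D2:**
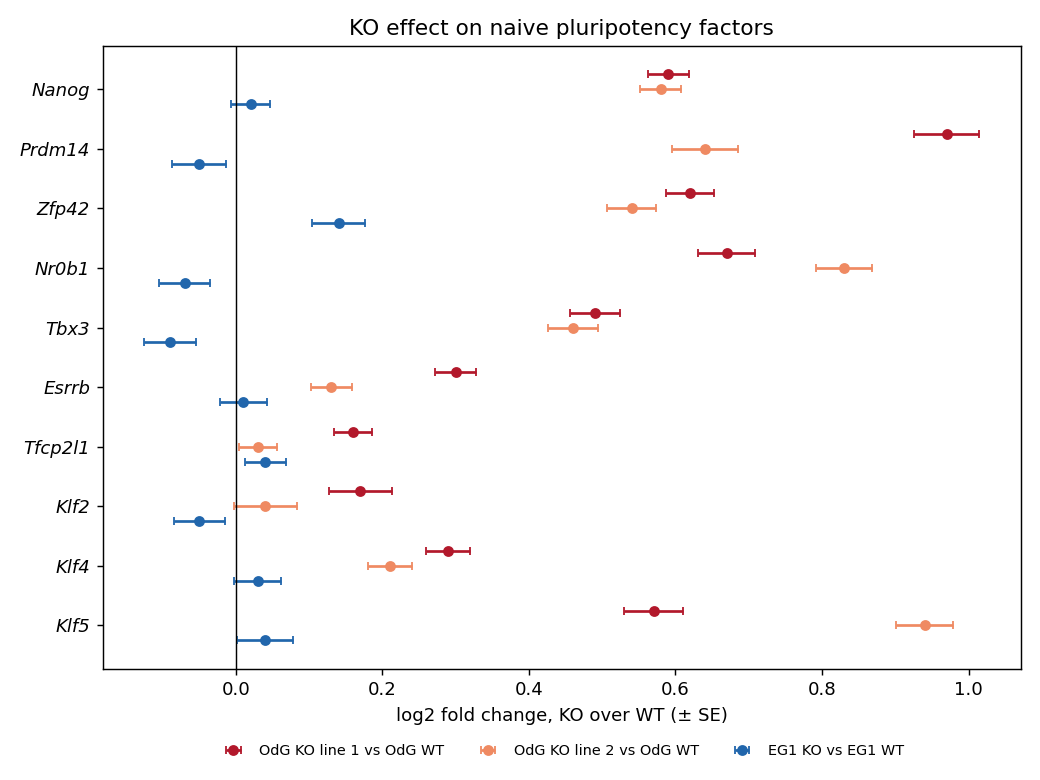
Log2 fold change of each factor, KO over WT, with bars of ± 1 SE, for OdG KO line 1, OdG KO line 2 and EG1 KO, each against WT of its own parental line. The OdG points lie above 0, from 0.03 for Tfcp2l1 in line 2 to 0.97 for Prdm14 in line 1, and the EG1 points run from -0.09 for Tbx3 to 0.14 for Zfp42.

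Taken line by line, 10 members were higher in OdG KO line 1 and 8 in line 2, with Klf2 and Tfcp2l1 not passing in line 2. In line 1, 26.8% of all genes tested were called higher and 26.1% lower, and in line 2, 30% higher and 29.8% lower. Against a 1.2-fold change, 6 members were higher in each line, where 10% of genes were higher and 14.1% lower in line 1, and 14.9% higher and 18.4% lower in line 2. The median log2 fold change of the 10 was 0.53 in line 1 and 0.50 in line 2. All 10 members were free of overlap with WT in line 1, where 75.4% of all genes were, and 8 in line 2, where 79% were. The comparisons of both lines share the OdG WT libraries. Without OdG WT replicate 2, Klf2 passed in line 2 (adjusted p = 0.011), and without OdG WT replicate 1, Tfcp2l1 did (adjusted p = 0.003).

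The lines also differed from each other. In line 2 over line 1, Klf5 was higher by 0.36 ± 0.038 on the log2 scale (adjusted p = 8.3e-07) and Nr0b1 by 0.16 ± 0.037 (adjusted p = 0.0029). Prdm14 was lower at -0.34 ± 0.042 (adjusted p = 6.2e-06), Esrrb at -0.17 ± 0.028 (adjusted p = 1.4e-04) and Tfcp2l1 at -0.13 ± 0.026 (adjusted p = 6.6e-04). Klf2 at -0.13 ± 0.043 (adjusted p = 0.023) and Klf4 at -0.08 ± 0.03 (adjusted p = 0.048) were also lower, but both lost the call when libraries were scaled by total counts or upper quartile, or tested with DESeq2. Their calls were also lost when either library of line 1 or replicate 2 of line 2 was left out, with adjusted p = 0.065 to 0.28 for Klf2 and 0.16 to 0.21 for Klf4, whose call was also lost without replicate 1 of line 2. Nanog (-0.01 ± 0.028), Tbx3 (-0.03 ± 0.034) and Zfp42 (-0.08 ± 0.033, adjusted p = 0.057) did not pass, although Zfp42 passed when either OdG WT library was left out (adjusted p = 0.0094 without replicate 1). That is 2 members higher and 5 lower, against 18.6% of all genes tested higher and 19.2% lower, and 9 members without overlap between the lines, against 70.7% of all genes. Against a 1.2-fold change, Klf5 alone was called, where 7.72% of genes were higher and 6.4% lower. Tfap2c, at 10.4 CPM in line 1 and 113 CPM in line 2, differed between the lines too, and its part in these differences was not tested.

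In EG1, 1 of the 10 members was called higher in KO and 0 lower, where 3.6% of the 14016 genes tested were called higher and 4.06% lower. By edgeR's quasi-likelihood test, Zfp42 was higher and Tbx3 and Nr0b1 lower at an unadjusted p under 0.05. The other 7 had log2 fold changes from -0.05 to 0.04 (adjusted p = 0.46 to 0.89). The median of the 10 was 0.01. Without EG1 KO replicate 1, Tbx3 (adjusted p = 0.044) and Nr0b1 (adjusted p = 0.022) were called lower. Zfp42, Tbx3 and Nr0b1 showed no overlap between KO and WT, and 25% of all genes showed none. Against a 1.2-fold change, 0 members were called in EG1, where 0.285% of genes were called higher and 0.678% lower. Of all EG1 calls, 47% were higher in KO, or 32.2% when libraries were scaled by total counts only.

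**Figure D3:**
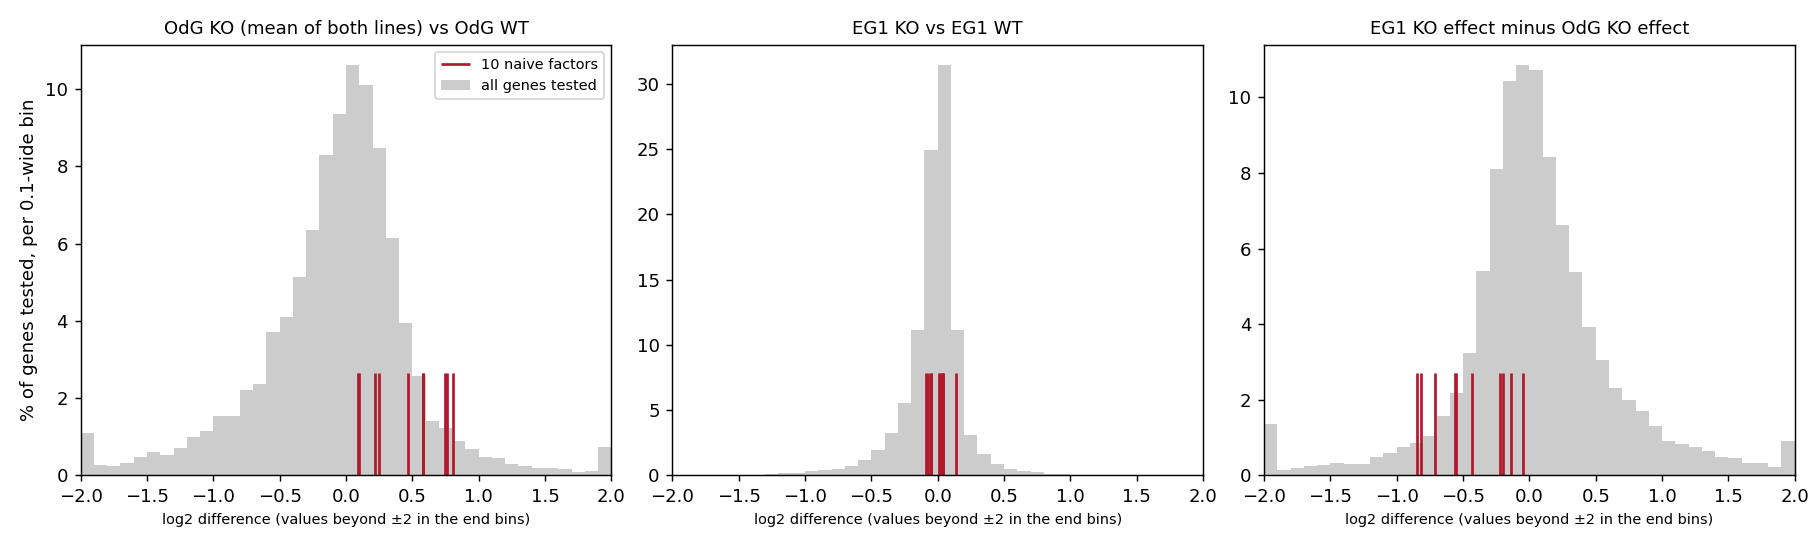
Share of all genes tested (%, vertical axis) by log2 difference (horizontal axis, values beyond the range in the end bins) for OdG KO over WT, EG1 KO over WT and the EG1 KO effect minus the OdG KO effect, with the 10 naive factors as red lines. The lines lie between 0.09 and 0.81 in OdG, between -0.09 and 0.14 in EG1 and between -0.85 and -0.05 for the difference.

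The difference between the parental lines was itself tested, in 1 fit over all 12 libraries and 14977 genes, as the EG1 KO effect minus the OdG KO effect. It was negative and past the threshold for 9 members, against 20.2% of all genes called lower and 19.5% called higher. The largest differences among the 10 were -0.85 ± 0.055 for Prdm14 (adjusted p = 1.4e-13), -0.82 ± 0.05 for Nr0b1 (adjusted p = 3.3e-14) and -0.71 ± 0.051 for Klf5 (adjusted p = 1.9e-12). Nanog differed by -0.56 ± 0.038 (adjusted p = 4.7e-13), Tbx3 by -0.55 ± 0.046 and Zfp42 by -0.43 ± 0.047. Against a 1.2-fold change these 6 stayed called, where 9.04% of genes were higher and 6.74% lower. Klf4, Esrrb and Klf2 differed by -0.22 to -0.14, and Klf2 lost its call without replicate 1 of OdG WT, OdG KO line 1, OdG KO line 2 or EG1 WT, or replicate 3 of EG1 KO (adjusted p = 0.05 to 0.29). Across 6 other alternatives with all libraries kept, apart from the 1.2-fold test, 8 to 9 members were called lower. Tfcp2l1 did not pass (-0.05 ± 0.038, adjusted p = 0.31). Parental line and count table go together, so they cannot be told apart.

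Levels of the factors in WT are given for the parental lines side by side. The ratio of EG1 WT to OdG WT was 2.54 for Prdm14, 2.53 for Nr0b1, 2.19 for Nanog and 1.28 for Esrrb, and between 0.811 and 0.972 for the other 6. For the 4 factors that were higher in EG1 WT, the OdG KO mean lay between OdG WT and EG1 WT, so that Nanog averaged 973 CPM in line 1 and 963 CPM in line 2, against 646 CPM in OdG WT and 1411 CPM in EG1 WT. For the other 6, OdG KO lay on the far side of OdG WT from EG1 WT. No test was made of these levels, which come from separately scaled tables.

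Per exon length, Nanog was first among the 10 in every group, at 434 CPM per kb in OdG KO line 1, 430 in line 2 and 288 in OdG WT, and at 637 in EG1 KO and 629 in EG1 WT. The lowest was Klf5 in line 1 (46.0) and in both EG1 groups (29.5 in KO, 28.8 in WT), and Prdm14 in line 2 (40.9) and OdG WT (26.3). Nr0b1 was seventh of 10 in each OdG group and second in each EG1 group, where its library range overlapped that of Klf2, the next. Tfcp2l1 and Klf2 overlapped in all OdG groups. Lengths are exon unions of GENCODE vM21 genes, which may differ from the annotation used for counting.

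**Figure D4:**
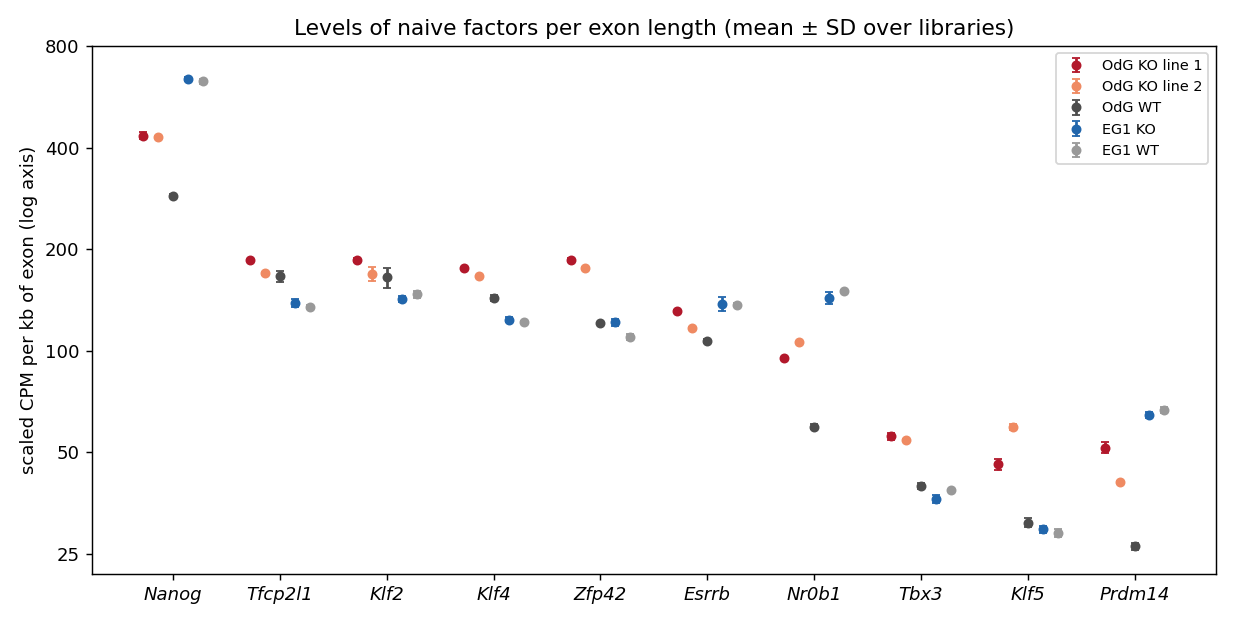
Scaled CPM per kb of exon for each factor on a log axis, as mean ± SD over the 2 or 3 libraries of each of the 5 groups. Nanog is highest in every group, and Prdm14, Tbx3 and Klf5 are the lowest 3.

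The rest of the pluripotency programme was read from companion lists, with each gene's log2 fold change in OdG KO and EG1 KO. Of 10 core pluripotency genes, all 10 were higher in OdG KO and 4 in EG1 KO. Pou5f1 was 0.18 ± 0.024 and Sox2 0.21 ± 0.027 higher in OdG KO on the log2 scale. Trim28, a corepressor, was 0.69 ± 0.023 higher and Lin28a, an RNA-binding protein, 1.00 ± 0.043 higher in OdG KO, and in EG1 KO Lin28a was 0.45 ± 0.07 higher and Utf1 0.35 ± 0.062 higher. Of 17 other regulators of the naive network, 13 were higher and 1 lower in OdG KO, and 3 higher and 0 lower in EG1 KO. The repressor Foxd3 was 2.12 ± 0.088 and Tcf7l1 0.81 ± 0.046 higher in OdG KO, and Mycn was 0.16 ± 0.036 higher in EG1 KO. The 1 lower regulator was Stat3, at -0.28 ± 0.033 in OdG KO (adjusted p = 8.6e-07). Stat3 averaged 171 CPM in each OdG KO line and 208 CPM in OdG WT, and its part in the naive factor values was not tested. Of 16 genes that mark the naive state, 12 were higher and 2 lower in OdG KO. The higher ones included Tdh, the threonine dehydrogenase of ESCs, at 0.80 ± 0.026, and the 2 lower were Prdm16 at -1.19 ± 0.068 and Pecam1 at -0.29 ± 0.031. By line, 12 of the 16 were higher and 2 lower in line 1, and 10 were higher and 5 lower in line 2. Gdf3 and Jam2, called higher in the mean, averaged 235 and 204 CPM in line 1. In line 2 they averaged 149 and 128 CPM, below the 164 and 141 CPM of OdG WT. In EG1 KO 4 of the 16 were higher, led by Dnmt3l, a DNA methyltransferase cofactor, at 0.68 ± 0.059. Background calls are 29.4% higher in OdG KO and 3.6% higher in EG1 KO, as given above. They are 26.8% higher and 26.1% lower in line 1, and 30% higher and 29.8% lower in line 2.

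Lists of genes that follow, end or feed the naive state were called in both directions, beside 29.4% of all genes higher and 30.5% lower in OdG KO and 3.6% higher and 4.06% lower in EG1 KO. Of 16 formative and primed genes tested, 7 were higher and 3 lower in OdG KO. Dnmt3b was at 1.06 ± 0.037 and the Nodal antagonist Lefty2 at 1.03 ± 0.042, and among the lower were Sfrp2 at -0.47 ± 0.088 and T at -0.17 ± 0.051. Sfrp2 averaged 24.8 CPM in line 1, 6.97 CPM in line 2 and 18.3 CPM in OdG WT, so only line 2 lay below WT. In EG1 KO 1 was higher, Dnmt3b at 0.29 ± 0.042, and 2 were lower, Lefty2 at -0.15 ± 0.039 (adjusted p = 0.017) and Sfrp2 at -0.40 ± 0.13 (adjusted p = 0.046). Of 20 genes for exit from the naive state, 11 were higher and 4 lower in OdG KO, and 1 of 19 was higher and 1 lower in EG1 KO. Spry2 was among the higher in OdG KO, at 0.73 ± 0.04. The 4 lower were Fnip1 at -0.85 ± 0.065, Flcn at -0.50 ± 0.052, Mapk3 at -0.49 ± 0.046 and Fnip2 at -0.38 ± 0.041. Of 20 genes of the LIF, BMP and Wnt inputs, 5 were higher and 4 lower in OdG KO, with the LIF feedback inhibitor Socs3 at 0.63 ± 0.036 and the Wnt factor Lef1 at -0.66 ± 0.038. By line, 6 were higher and 5 lower in line 1, where 26.8% of all genes were higher and 26.1% lower. In line 2, 7 were higher and 9 lower, where 30% of all genes were higher and 29.8% lower. In EG1 KO 3 of 19 were higher and 2 lower. Among relatives of the members, 2 of 12 Klf genes were higher and 2 lower in OdG KO, with Klf8 at 0.60 ± 0.037 and Klf6 at -0.53 ± 0.041, and 0 were called in EG1 KO, where 3 were lower at an unadjusted p under 0.05. Of 23 relatives of the other members tested, 8 were higher and 9 lower in OdG KO, with Nr5a2 at 0.42 ± 0.042 and Prdm16 at -1.19 ± 0.068. Tcf7l1 and some others stand in more than 1 list. The median log2 fold change in OdG KO was 0.69 for the core genes, 0.38 for the other regulators, 0.29 for the genes marking the naive state, 0.26 for exit genes, 0.22 for formative and primed genes, -0.02 for the inputs, 0.01 for Klf relatives and -0.11 for the other relatives, against -0.01 for all genes. In EG1 KO the medians of these lists ran from -0.04 to 0.06.

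Markers of other cell types were read as summed levels, and their calls stand beside the same shares of all genes (29.4% higher and 30.5% lower in OdG KO, 3.6% and 4.06% in EG1 KO). The summed level of 9 fibroblast feeder markers was 15.9 to 18.2 CPM in OdG KO line 1, 8.82 to 8.96 CPM in line 2 and 16.8 to 20.1 CPM in OdG WT, and 11.6 to 13.6 CPM in EG1 KO and 9.63 to 11.4 CPM in EG1 WT. Lum and Postn were at 0 in line 1 and in both EG1 groups, and 2 of 4 tested markers were lower in OdG KO and 1 of 2 higher in EG1 KO. By line, 1 of the 4 was lower in line 1 and 2 in line 2, beside 26.1% and 29.8% of all genes. Col1a1 averaged 12.1 CPM in line 1, 2.73 CPM in line 2 and 11 CPM in OdG WT. The summed primitive endoderm markers were 10.4 to 11.3 CPM in line 1, 12.9 to 13.8 CPM in line 2 and 17.7 to 18.2 CPM in OdG WT, with 10.3 to 12.3 CPM in EG1 KO and 11.5 to 12.1 CPM in EG1 WT. Of these, 3 of 7 tested were lower in OdG KO, and in EG1 KO 0 of 6 were called (0 at an unadjusted p under 0.05 by edgeR's quasi-likelihood test). The 8 trophoblast markers summed to 139 to 142 CPM in line 1, 210 to 221 CPM in line 2 and 119 CPM in both OdG WT libraries, with Tfap2c among them, and to 100 to 105 CPM in EG1 KO and 98.2 to 103 CPM in EG1 WT. Without Tfap2c, left out after its values were seen, the other 7 summed to 128 to 132 CPM in line 1, 99.6 to 106 CPM in line 2 and 119 CPM in OdG WT, and to 15.2 to 18.7 CPM in EG1 KO and 12.5 to 13.9 CPM in EG1 WT. Most of that OdG sum was Cdx2, at a mean of 111 CPM in line 1, 85.2 CPM in line 2 and 83.5 CPM in OdG WT. In EG1, Cdx2 averaged 1.37 CPM in KO and 1.22 CPM in WT. Krt7 averaged 10.1, 3.54 and 14.7 CPM and Ascl2 4.51, 6.88 and 12.3 CPM in line 1, line 2 and OdG WT. Of the 8 trophoblast markers, 7 were tested in OdG KO, with 2 higher and 4 lower, and 5 in EG1 KO, with 1 higher. The 8 ESC markers, Nanog among them, were all higher in OdG KO, and 2 of 8 were in EG1 KO. The part of these markers in the naive factor values was not tested.

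Across the 12 libraries, the members moved together to differing degrees. Over 45 pairs, Pearson's r of the log2 level relative to the WT mean of the same table ranged from 0.42 to 0.98, with a median of 0.88, and the lowest pair was Klf5 and Tfcp2l1. The points share libraries and the same KO and WT groups, and r is given as a description. The genes most like Nanog by the same measure were Hsph1 (r = 0.998), Guf1 (0.997), Hspa8 (0.997), Ncor1 (0.997) and Ddx21 (0.996), and 15.5% of 9757 genes had r above 0.9. The genes most like the mean over the members were Tdh (0.999), Guf1 (0.998), Map4 (0.996), Hsph1 (0.996) and Dohh (0.995).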

How the data were processed

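RNA-seq was analysed for 12 libraries in 2 count tables, OdG and EG1. Trizol extraction and the NEBNext Ultra kit are named per the labels' protocols. Per the submitters' processing notes, the tools were CASAVA, HISAT2 2.1.0, featureCounts 1.6.4 and DESeq2, on mm10. No source used here gives the gene annotation, the filters or the strandedness of counting. What the authors deposited are unnormalized integer counts for each gene symbol. Without the strand setting, reads of Tbx3 and its antisense partner Tbx3os1 (115 shared exonic bases) cannot be told apart, and Nanog and Zfp42 have processed pseudogenes that may share reads.

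Counts were fitted with edgeR 4.0.16 in R 4.3.3: filterByExpr, TMM scaling, 1 mean per group, a two-sided quasi-likelihood test, and Benjamini-Hochberg adjustment over all genes of the fit, called at an adjusted p under 0.05. This left 14413 genes in OdG, 14016 in EG1 and 14977 in the joint fit of the difference between parental lines. The OdG KO value weighs both lines equally. The SE of a log2 fold change is its size divided by the square root of the F statistic of that test. Totals were 16110028 to 18774032 counts in OdG and 17421260 to 19706599 in EG1, and replicate pairs exceeded counting noise at a chi-square of 1.81 to 3.7 times its degrees of freedom. The 3.7 was the OdG WT pair, against 1.91 in OdG KO line 1 and 1.86 in line 2. The pairs gave 2.01 to 3.42 in EG1 KO and 1.81 to 2.25 in EG1 WT. All adjusted p-values come from this test unless DESeq2 1.42.0 is named.

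The members and lists were chosen with earlier results of these data known. Named genes were the 10 members, Etl4, the core genes, up to 3 called genes per list and comparison by smallest adjusted p, and the 5 genes most like Nanog and most like the member mean (at least 5 CPM, pseudocount 0.5 CPM). The 5 CPM was the mean within each table, and members and clone-style or predicted symbols were passed over in that likeness. Outside the rule for named genes, the genes lower in OdG KO are named for some lists, after their values were seen. So are Gdf3, Jam2 and single markers behind a sum. Alternatives were other scalings, no filter, DESeq2, a replicate block, each library left out, other groupings and a test against a 1.2-fold change. A gene that the rule of smallest adjusted p took is left out, as is the EG1 count of its list.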

Additional observations from a re-analysis of the deposited data

Results flagged for a closer look

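The difference between KO and WT libraries was not the same in the parental lines for 9 of the 10 factors, in the test of that difference itself (EG1 KO effect minus OdG KO effect, log2, edgeR's quasi-likelihood test). The values were -0.85 for Prdm14, -0.82 for Nr0b1, -0.71 for Klf5, -0.56 for Nanog, -0.55 for Tbx3, -0.43 for Zfp42, -0.22 for Klf4, -0.2 for Esrrb and -0.14 for Klf2. The adjusted p was 0.029 for Klf2 and at most 5.2e-04 for the other 8. As above, the Klf2 call did not hold under every alternative. Over all genes tested, 20.2% were called lower and 19.5% higher. As above, cell stock and loss of Etl4 cannot be told apart in OdG.

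The OdG KO lines differed from each other for 7 factors (line 2 minus line 1, log2), where 18.6% of all genes tested were called higher and 19.2% lower. Klf5 was 0.36 and Nr0b1 0.16 higher in line 2. Prdm14 was at -0.34, Esrrb at -0.17, Klf2 at -0.13, Tfcp2l1 at -0.13 and Klf4 at -0.08. The adjusted p was 0.048 for Klf4 and 0.023 for Klf2.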

How the results depend on the processing

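No called value of a member changed sign under any alternative run: of 870 member values, 801 kept their direction and side of the threshold, 52 lost a call, 7 gained one and 10 uncalled values changed sign. Against a 1.2-fold change, chosen after seeing the data, the members higher were 6 in OdG KO and 6 in line 1, and line 2 over line 1 had 1 higher and 0 lower. EG1 KO had 0 higher. All genes higher and lower then numbered 1768 and 2451 (OdG KO), 1444 and 2030 (line 1), 2149 and 2652 (line 2), 1113 and 923 (line 2 over line 1), 40 and 95 (EG1 KO), and 1354 and 1010 (EG1 minus OdG). The members lower in line 2 over line 1 were 3 under upper quartile scaling, total counts and DESeq2, against 5 in the report. DESeq2 called 1664 genes higher and 1742 lower there, and 350 lower in EG1 KO, against 2680, 2774 and 569. Under total counts, EG1 KO had 1 member lower (Tbx3, adjusted p = 0.048) and 332 genes higher, against 505. With the OdG KO libraries as a single group, 2378 genes were higher and 2231 lower, against 4241 and 4397. The cause of these shifts was not tested.

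Leaving out 1 library at a time gave 9 to 10 members higher in OdG KO, 10 in line 1 and 8 to 9 in line 2. Line 2 over line 1 had 3 to 6 members lower, EG1 KO 0 to 1 higher and 0 to 2 lower (Tbx3 and Nr0b1 without EG1 KO replicate 1), and the parental difference 8 to 9 lower. In EG1 KO, 257 to 595 genes were higher and 365 to 618 lower, with 257 higher without EG1 WT replicate 1, 283 without EG1 WT replicate 2, 293 without EG1 WT replicate 3 and 365 lower without EG1 WT replicate 3.

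Same-numbered libraries showed no shared deviation over the genes tested (r = -0.036 to 0.024). In OdG, with 2 libraries per group, same-numbered and different-numbered pairs must give r of equal size and opposite sign. Whether the numbers pair samples by culture or preparation cannot be told from these values. With the replicate block, 10 members were higher in OdG KO, 1 in EG1 KO and 9 lower in the parental difference, and the Klf4 call in line 2 over line 1 was lost (adjusted p = 0.066). Depth left the members well covered, as the lowest raw count of any member in any library was 1116.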
